A study of Mus musculus with 6 samples.

Results

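The genes described here are the Wnt ligands, their receptors and co-receptors, their secreted inhibitors and the nuclear factors they act through, as measured in 3 kinds of cultured mouse cells. Members were all non-control probes whose RefSeq accession belongs to a mouse gene with a symbol that begins with Wnt, Fzd, Dkk, Sfrp or Axin, or that is Lef1, Tcf7, Tcf7l1, Tcf7l2, Lrp5, Lrp6, Wif1, Ctnnb1 or Apc. The rule reads names only and no measured value, though it was set with earlier results of these data known. It gave 41 probes for 37 genes, of 41006 probes and 12323 named genes on the array. They fall into 14 ligands, 6 Frizzled receptors, 2 co-receptors, 9 secreted inhibitors, 2 cytoplasmic proteins and 4 nuclear factors. A further 13 symbols of the rule had no probe matched by accession and are not analysed here, namely Apc, Axin1, Fzd4, Fzd5, Fzd7, Fzd9, Fzd10os, Sfrp1, Wnt1, Wnt4, Wnt5a, Wnt8b and Wnt9a.

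Each of 3 cell types was measured on 2 arrays. Multipotent adult progenitor cells (MAPC) were adherent bone marrow cells of a single clone described as high in Oct4. They were depleted of CD45+ and Ter119+ blood cells after 4 weeks, replated at 10 cells per well and used beyond 80 population doublings, in 5% oxygen and 2% serum. Their medium held leukemia inhibitory factor (LIF) and the epidermal and platelet-derived growth factors. Embryonic stem cells (ESC), from C57BL/6, were grown with 15% serum and LIF on irradiated mouse embryonic fibroblasts, then plated without feeders before RNA was taken. Neurospheres (NS) were floating spheres grown with basic fibroblast growth factor and epidermal growth factor from the forebrain of C57BL/6 embryos at E11.5, a day count of embryonic development. Every array carried Cy3-labelled sample RNA beside a Cy5-labelled reference pool from 11 mouse cell lines. Cell type and culture conditions differed together and cannot be told apart. Since the MAPC arrays share a clone, their p-values do not cover the spread between clones. Fewer cells making a transcript and less of it per cell cannot be told apart in such RNA.

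Wnt proteins are secreted, lipid-carrying signals that bind Frizzled receptors together with the co-receptors Lrp5 and Lrp6. Without a Wnt, a complex built on Axin and Apc marks beta-catenin, the product of Ctnnb1, for destruction. With a Wnt, beta-catenin builds up, enters the nucleus and joins the Tcf and Lef factors to switch on target genes. Dickkopf (Dkk) proteins block the co-receptors, while secreted Frizzled-related proteins (Sfrp) and Wif1 bind the Wnts themselves. The pathway is known for maintaining embryonic stem cells and for patterning the embryonic forebrain.

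The probes of the 7 genes that differed at least 2-fold between groups are printed here with both probes of Fzd1 and of Lrp5, because those pairs gave different results. Each is the 60-base oligonucleotide of the array as the scanner files list it, in lower case throughout. Within each pair the probes shared no run of letters longer than 6 bases for Fzd1 and 7 bases for Lrp5, so they hold different sequence.
Dkk1: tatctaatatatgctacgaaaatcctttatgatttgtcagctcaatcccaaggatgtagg
Dkkl1: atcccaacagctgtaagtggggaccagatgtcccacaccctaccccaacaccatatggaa
Sfrp2: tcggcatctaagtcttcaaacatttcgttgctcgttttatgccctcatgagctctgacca
Fzd1, brightest probe: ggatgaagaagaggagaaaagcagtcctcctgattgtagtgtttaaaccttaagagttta
Fzd1, other probe: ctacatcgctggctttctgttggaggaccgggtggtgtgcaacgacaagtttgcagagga
Fzd2: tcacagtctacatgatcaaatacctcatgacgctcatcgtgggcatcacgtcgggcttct
Wnt2: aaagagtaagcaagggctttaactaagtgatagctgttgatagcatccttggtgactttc
Tcf7l1: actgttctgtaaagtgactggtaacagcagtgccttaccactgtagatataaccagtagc
Lrp5, brightest probe: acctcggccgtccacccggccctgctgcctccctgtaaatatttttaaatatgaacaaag
Lrp5, other probe: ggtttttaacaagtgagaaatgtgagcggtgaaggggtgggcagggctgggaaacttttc
By RefSeq, Fzd1 lies on mouse chromosome 5, Wnt2 and Tcf7l1 on chromosome 6, Dkkl1 on chromosome 7, Fzd2 on chromosome 11, Sfrp2 on chromosome 3, and Dkk1 and Lrp5 on chromosome 19.

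Values below are log2 ratios of sample to reference signal unless given in units, and a difference of 1 between groups is 2-fold. A ratio of 0 means equal signal of sample and reference after processing. An offset of 50 units was added to both channels, which draws the ratio of a faint probe towards 0. At faint signal, a ratio near 0 thus does not show as much as in the reference pool. A gene with several probes was counted by its brightest. Differences were tested with limma across all 39402 tested probes, with Benjamini-Hochberg adjustment and a threshold of 0.05, and are given with their standard error (SE). All 37 genes were tested. By 314 negative control spots, the signals were low for many members: 23 and 7 of the 41 probes lay above the highest negative spot on the MAPC arrays, against 40 and 20 on the ESC arrays and 31 and 20 on the NS arrays. That highest spot lay at 10.2 units on ESC array 1 and at 165 on MAPC array 2, so these counts do not compare between arrays. Between 39 and 41 probes lay above the 95th percentile of the negative spots on each array, beside 93.3% to 98% of all probes. Over all probes, arrays correlated by 0.979 to 0.989 within groups and by 0.456 to 0.611 between them.

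The labelled cell types were set against marker lists. Summed Cy3 signals here and below add up normalized Cy3 values, which hold the offset of 50 units. They are not on the scale of the background-subtracted signals given for single genes. A gene with hardly any signal still adds to such a sum, as Dppa3 with 56.7 to 57.3 units in MAPC. Of 10 measured pluripotency genes, 10 were lower in MAPC than in ESC, and neither MAPC array had Dppa3 or Gdf3 well above background. Against NS, MAPC were lower in 11 of 12 genes of neural progenitors. Fibroblast genes, 15 of them measured, were lower in MAPC than in ESC for 14 and higher in ESC than in NS for 12. Their summed Cy3 signal was 6548 to 6808 in MAPC, against 45949 to 47987 in ESC and 16933 to 17659 in NS, and Postn failed that mark on both MAPC arrays. Tagln was the brightest of these genes in ESC, at 18123 to 21283 units of the sum. Genes typical of endoderm, a list chosen because earlier results of these data had them high in MAPC, were higher in MAPC for all 7 measured against both ESC and NS, which is no independent evidence. They summed to 172844 to 190111 in MAPC, 13621 to 13657 in ESC and 4517 to 4840 in NS, and Lamb1, with the largest share in MAPC at 74373 to 86535 units, was saturated on 2 arrays. The blood cell list summed to 4671 to 4756 in MAPC, 6346 to 6520 in ESC and 2921 to 4326 in NS. Coro1a alone gave 3607 to 3658 units in MAPC, 3217 to 3458 in ESC and 2014 to 3318 in NS. Lyz2 gave 233 to 291, 2038 to 2083 and 240 to 251 in that order. None of the 6 measured genes of this list passed the threshold between MAPC and NS, and 3 were lower in MAPC than in ESC.

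Of the 37 genes, 25 passed the threshold in at least 1 of the 3 comparisons and 12 in none. MAPC differed from ESC in 19 genes, with 6 higher and 13 lower (51.4%), against 38.4% of all tested probes (16.2% higher, 22.2% lower). From NS, MAPC differed in 8 higher and 11 lower genes (51.4%), against 44.2% of all probes (21.8% higher, 22.3% lower). ESC differed from NS in 9 higher and 9 lower genes (48.6%), against 38.6% of all probes (20.4% higher, 18.2% lower). The median difference over the genes was -0.07, -0.02 and 0.03 in that order, beside 0.01, 0.03 and 0.01 over all probes. At least 2-fold differences were found for 4 genes (10.8%) between MAPC and ESC, where all probes gave 8.56%. They were found for 6 genes (16.2%) between MAPC and NS, where all probes gave 11.4%, and for 3 genes (8.11%) between ESC and NS, where all probes gave 9.01%. The comparisons share arrays, since each group enters 2 of them.

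**Figure D1:**
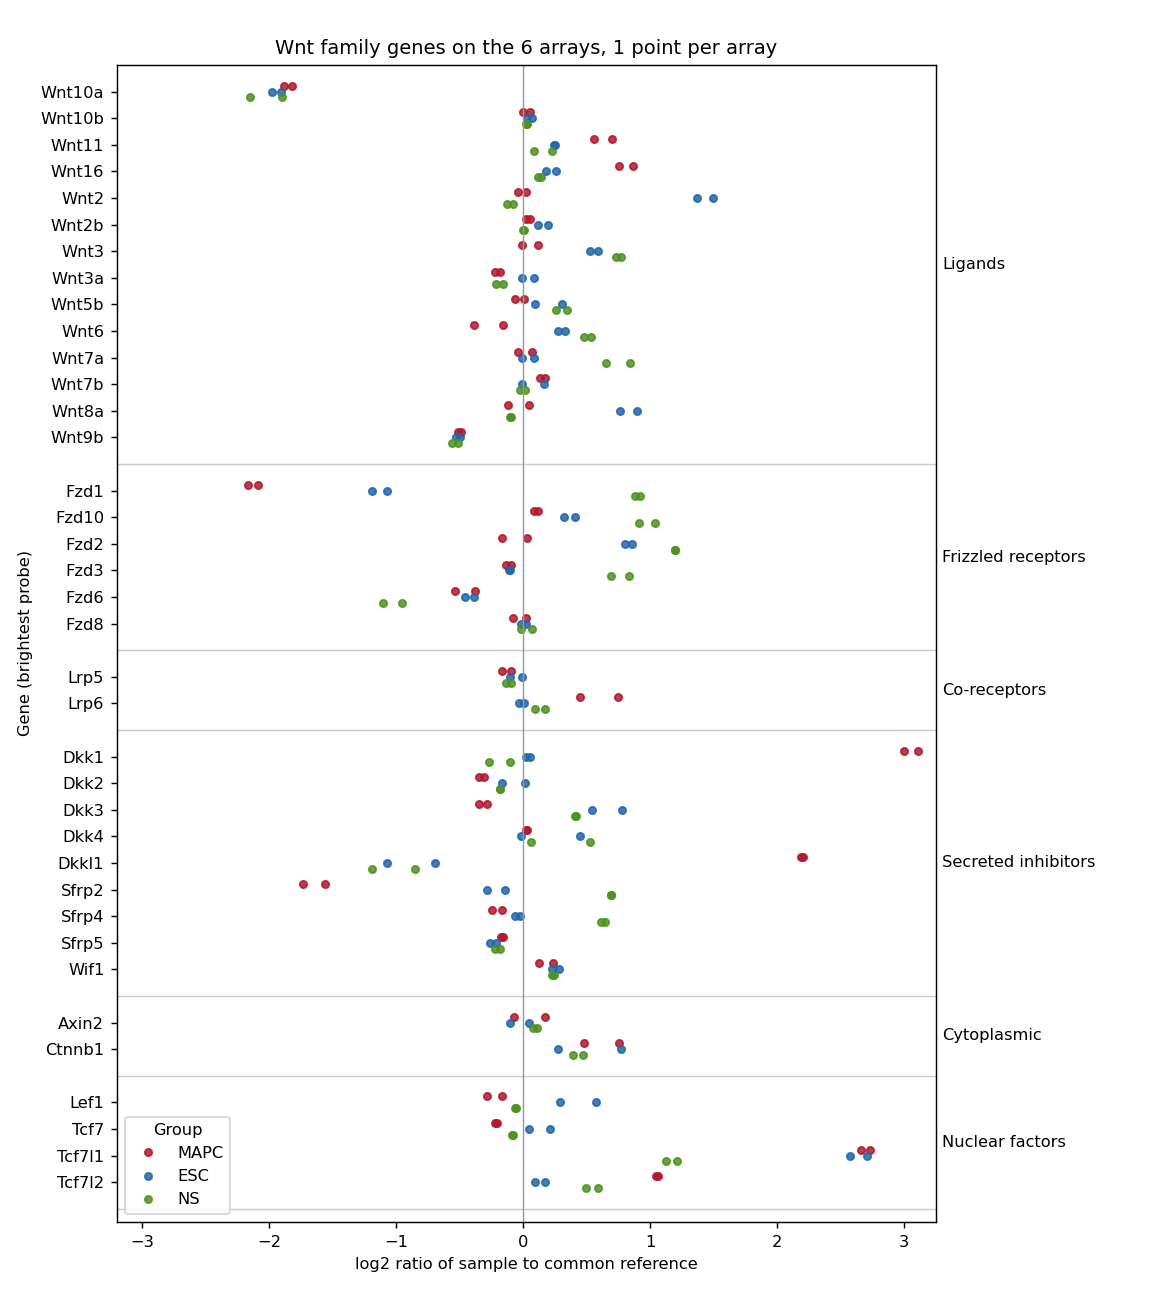
Log2 ratio of sample to reference (horizontal axis) for the brightest probe of each of the 37 genes (vertical axis, by role), with 1 point per array coloured by group. Most genes lie near 0 in all 3 groups, while Dkk1 (3.10 and 3.00) and Dkkl1 (2.20 and 2.19) stand far to the right on the MAPC arrays and Fzd1 (-2.16 and -2.09) far to the left.

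Among the 14 ligands, MAPC were lower than ESC in 5 and higher in 2, and lower than NS in 4 and higher in 2. ESC were higher than NS in 3 and lower in 2. The ligands called were thus 50%, 42.9% and 35.7% in that order, beside 38.4%, 44.2% and 38.6% of all tested probes. Wnt2, a ligand known from fetal lung and placenta, was the only ligand that differed at least 2-fold in any comparison. Its log2 ratio was -0.04 and 0.02 on the MAPC arrays, against 1.37 and 1.49 on the ESC arrays and -0.13 and -0.08 on the NS arrays. ESC thus stood apart, and the MAPC and NS arrays lay close together near 0, where the offset draws faint probes. In MAPC it was 2.71-fold lower than in ESC (log2 difference -1.44 ± 0.06 SE, adjusted p = 1.22e-06). In ESC it was 2.90-fold higher than in NS (1.54 ± 0.06 SE, adjusted p = 8.39e-07), while MAPC and NS differed by 0.10 ± 0.06 SE (adjusted p = 0.267). The background-subtracted signal was 11.54 and 15.2 units in MAPC, 94.0 and 116 in ESC and 22.5 and 16.5 in NS, so the low groups were faint. Without background subtraction the difference was -0.41 for MAPC against ESC and 0.43 for ESC against NS. With the scanner software's processed signals, which change several steps together, it was -2.45 and 2.70, and the calls were kept in both cases.

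Wnt8a, a ligand of early mesoderm formation, had the same order. Its ratio was 0.05 and -0.12 on the MAPC arrays, 0.76 and 0.90 on the ESC arrays and -0.10 and -0.10 on the NS arrays. MAPC were lower than ESC by a log2 difference of -0.86 ± 0.08 SE (limma, adjusted p = 5.16e-05), and ESC were higher than NS by 0.93 ± 0.08 SE (adjusted p = 3.1e-05). The fibroblast genes given above were also highest in ESC, and their part in the values of Wnt2 and Wnt8a, and in those of the ESC-high genes Dkk3, Lef1 and Rspo1 described later, was not tested.

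Wnt16 and Wnt11, ligands known for acting in large part without beta-catenin, were higher in MAPC. Wnt16 had ratios of 0.75 and 0.86 in MAPC, against 0.26 and 0.18 in ESC and 0.14 and 0.12 in NS, a difference of 0.59 ± 0.06 from ESC and 0.68 ± 0.06 from NS (SE, limma, adjusted p = 1.40e-04 and 4.63e-05). Wnt11 was higher by 0.38 ± 0.07 and 0.47 ± 0.07 (SE, adjusted p = 0.00389 and 0.001). Neither gene passed the test between ESC and NS, with differences of 0.09 in each. The endoderm genes given above were also highest in MAPC, and their part in these values, and in those of the MAPC-high genes Lrp6, Dkk1, Dkkl1 and Tcf7l2 described later, was not tested.

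Wnt3, Wnt6 and Wnt7a were lower in MAPC than in NS, with log2 differences of -0.69 ± 0.06, -0.78 ± 0.08 and -0.73 ± 0.08 SE. Wnt3, needed to form the mesoderm, and Wnt6, a ligand of epithelia, had lower levels in MAPC than in ESC as well, with differences of -0.51 ± 0.06 and -0.58 ± 0.08 SE (limma, adjusted p = 3.89e-04 and 6.83e-04). Wnt7a, a ligand of the developing brain, separated NS from both other groups: its ratio was -0.04 and 0.06 in MAPC, -0.01 and 0.08 in ESC and 0.65 and 0.84 in NS. MAPC and ESC differed by -0.03 for this gene, and ESC were lower than NS by a log2 difference of -0.71 ± 0.08 SE (adjusted p = 2.09e-04). Its background-subtracted signal was 10.3 and 16.7 units in MAPC, 10.3 and 23.6 in ESC and 58.4 and 53.5 in NS. On the first MAPC array and the first ESC array it was not well above background. Over the alternative ways of processing, the MAPC-minus-NS difference ran from -1.48 to -0.17. Neural progenitor genes were likewise highest in NS, with a summed signal of 1625 to 1626 in MAPC, 15508 to 16445 in ESC and 141102 to 151993 in NS. Fabp7, saturated on 2 arrays, gave 88176 to 100623 units of the NS sum, and Sox2, also a pluripotency gene, gave 13301 to 14217 of the ESC sum. Their part in the NS-high values here and among the receptors was not tested.

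Wnt10a, known from teeth and hair, Wnt10b, known from bone, Wnt2b, known from the eye and lung, Wnt7b, known from lung, and Wnt9b, known from kidney tubules, passed the test in no comparison. Their largest differences were 0.17 for Wnt10a and 0.16 for Wnt7b, both between MAPC and NS.

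Among the 6 Frizzled receptors, none was higher in MAPC than in ESC and 3 were lower (50%, against 38.4% of all tested probes). Against NS, 1 was higher and 4 were lower in MAPC (83.3%, against 44.2% of all tested probes). The same split was found for ESC against NS (83.3%, against 38.6%). The median difference over the 6 genes was -0.15 between MAPC and ESC, -0.87 between MAPC and NS and -0.49 between ESC and NS. The summed Cy3 signal of the receptors was 1255 to 1414 in MAPC, 1753 to 1813 in ESC and 3723 to 3831 in NS. Its scale holds the offset and is not that of the background-subtracted signals given below. Of these sums, the brightest Fzd1 probe alone gave 193 to 203 units in MAPC, 360 to 380 in ESC and 1742 to 1775 in NS. The other probe of that gene passed the test in no comparison.

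Fzd1 showed the widest spread of the receptors by its brightest probe. The log2 ratio was -2.16 and -2.09 on the MAPC arrays, against -1.20 and -1.07 on the ESC arrays and 0.88 and 0.92 on the NS arrays. The 3 groups did not overlap, and the arrays of each group lay close together. In MAPC it was 8.13-fold lower than in NS (-3.02 ± 0.06 SE, limma, adjusted p = 2.19e-08) and 1.99-fold lower than in ESC (-1.0 ± 0.06 SE, adjusted p = 9.23e-06). ESC were 4.08-fold lower than NS (-2.03 ± 0.06 SE, adjusted p = 2.36e-07). The background-subtracted signal was 60.4 and 65.2 units in MAPC, 186 and 235 in ESC and 997 and 1212 in NS.

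The other Fzd1 probe showed none of this. Its ratios were 0.19 and 0.13 in MAPC, 0.05 and 0.12 in ESC and 0.30 and 0.09 in NS, and it passed the test in no comparison, with differences of 0.08, -0.04 and -0.11 for MAPC against ESC, MAPC against NS and ESC against NS. With both probes averaged, the difference between MAPC and NS was -1.53. The direction given for Fzd1 therefore rests on the brightest probe, and the cause of the disagreement was not tested.

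Fzd2, a receptor for Wnts of both the beta-catenin and other branches, followed the same order of groups. Its ratio was 0.03 and -0.17 in MAPC, 0.85 and 0.80 in ESC and 1.19 and 1.19 in NS. MAPC were 2.40-fold lower than NS (-1.26 ± 0.07 SE, limma, adjusted p = 3.52e-06) and 1.86-fold lower than ESC (-0.90 ± 0.07 SE, adjusted p = 3.48e-05). ESC were lower than NS by a log2 difference of -0.37 ± 0.07 SE (adjusted p = 0.00456), which is larger than the gap between arrays in either group.

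Fzd3, a receptor for axon guidance and planar polarity, and Fzd10 were high in NS. Fzd3 had ratios of -0.14 and -0.10 in MAPC and -0.11 and -0.10 in ESC, against 0.83 and 0.69 in NS, and both groups were lower than NS by a log2 difference of -0.87 ± 0.06 SE (limma, adjusted p = 1.32e-05 and 1.73e-05). Fzd10 was lower than in NS by a log2 difference of -0.87 ± 0.06 SE in MAPC and -0.61 ± 0.06 SE in ESC. Fzd6, a receptor known to restrain beta-catenin signalling, went the other way by its brightest probe, with MAPC higher than NS by 0.57 ± 0.08 and ESC higher than NS by 0.60 ± 0.08 SE (adjusted p = 5.10e-04 and 4.34e-04). The other Fzd6 probe gave differences of 0.10 and 0.01 and passed in neither. Fzd8 lay between -0.08 and 0.07 on all 6 arrays and passed in no comparison.

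**Figure D2:**
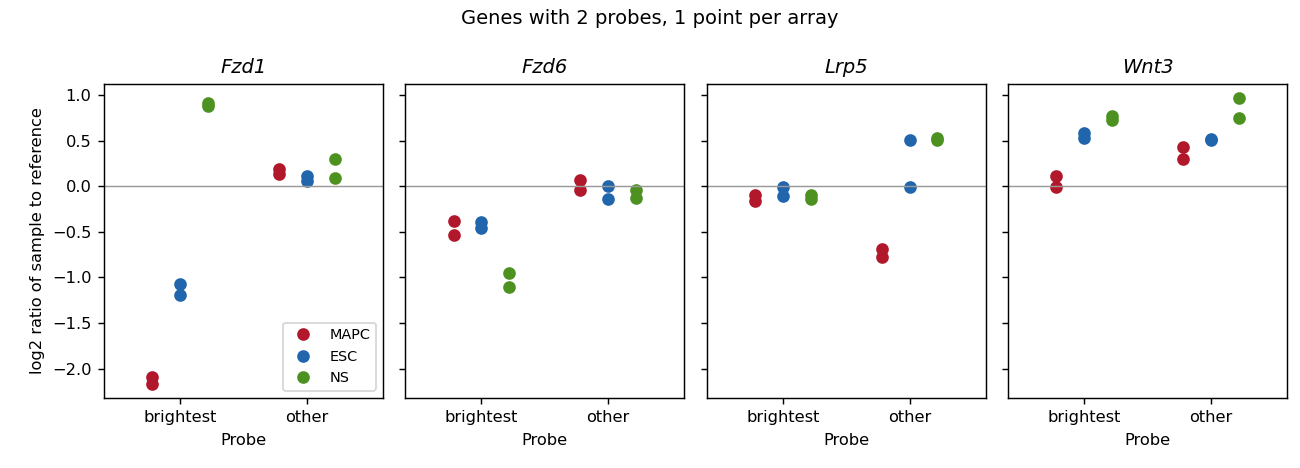
Log2 ratio of sample to reference (vertical axis) for the brightest and the other probe (horizontal axis) of the 4 genes with 2 probes, with 1 point per array coloured by group. All 3 groups lie apart by the brightest probe of Fzd1, and NS lies below the others by that of Fzd6, but not by the other probe of either gene. For Lrp5, MAPC lie below the others by the other probe, which lies at -0.68 and -0.77 in MAPC and 0.51 and 0.53 in NS.

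Lrp6, a co-receptor of beta-catenin signalling, was higher in MAPC, with ratios of 0.74 and 0.45, against 0.00 and -0.03 in ESC and 0.17 and 0.09 in NS. The difference was 0.61 ± 0.09 SE from ESC (limma, adjusted p = 0.00135) and 0.46 ± 0.09 SE from NS (adjusted p = 0.00487). Background-subtracted signals were faint, at 53.2 and 42.6 units in MAPC, 31.3 and 29.4 in ESC and 41.1 and 32.7 in NS. Over the alternatives, the Lrp6 difference from ESC ran from 0.15 to 1.26. With the sample channel alone, the call of Lrp6 against NS was lost (0.41, adjusted p = 0.0554). Lrp5, its close relative, passed in no comparison by its brightest probe, with all 6 ratios between -0.16 and -0.01. The other Lrp5 probe had ratios of -0.68 and -0.77 in MAPC, -0.01 and 0.51 in ESC and 0.51 and 0.53 in NS. By that probe MAPC were lower than ESC by a log2 difference of -0.98 ± 0.15 SE (adjusted p = 0.00105) and lower than NS by a log2 difference of -1.24 ± 0.15 SE (adjusted p = 2.13e-04). For Wnt3, the remaining gene with 2 probes, the other probe gave -0.15 ± 0.08 SE for MAPC against ESC (adjusted p = 0.205), where the brightest had passed, and -0.49 ± 0.08 SE for MAPC against NS (adjusted p = 0.00156).

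By the brightest probes, the secreted inhibitors Dkk1 and Dkkl1 held the widest differences of MAPC from both other groups. The secreted inhibitors number 9 genes, of which 2 were higher and 3 lower in MAPC than in ESC (55.6%, against 38.4% of all tested probes). Against NS, 2 of these genes were higher and 3 lower in MAPC (55.6%, against 44.2%). Their summed Cy3 signal was 8042 to 8308 in MAPC, 5005 to 5287 in ESC and 4833 to 5183 in NS. Dkkl1, which is not an established inhibitor of Wnts, alone gave 3046 to 3353 units of it in MAPC, 324 to 381 in ESC and 317 to 489 in NS. The largest share in each group was that of Dkk2, with 3409 to 3546 units in MAPC, 3288 to 3621 in ESC and 2341 to 2852 in NS.

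Dkk1, which blocks Lrp5 and Lrp6 and is itself a known target of the pathway, was high in MAPC. Its log2 ratio was 3.10 and 3.00 on the MAPC arrays, against 0.05 and 0.02 on the ESC arrays and -0.10 and -0.27 on the NS arrays. The MAPC arrays lay far above all others, and ESC and NS did not overlap. In MAPC it was 8.07-fold higher than in ESC (3.01 ± 0.07 SE, limma, adjusted p = 6.34e-08) and 9.42-fold higher than in NS (3.24 ± 0.07 SE, adjusted p = 2.75e-08). The background-subtracted signal was 358 and 310 units in MAPC, 13.7 and 19.5 in ESC and 15.7 and 4.42 in NS. On the second NS array only 76.1% of the negative control spots were dimmer than the probe. Without background subtraction the difference was 1.24 against ESC and 1.28 against NS. It was 3.98 and 4.94 with the scanner software's processed signals, which change several steps together, and the calls were kept in both cases.

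The Dkk1 promoter is shown because Dkk1 is among the members with the widest differences and is a known target of the Tcf and Lef factors. The stretch runs from 250 bases before to 50 after the start site in RefSeq, on the minus strand at chr19:30549447-30549746 of GRCm38.p6, read in the direction of the gene.
Dkk1 promoter: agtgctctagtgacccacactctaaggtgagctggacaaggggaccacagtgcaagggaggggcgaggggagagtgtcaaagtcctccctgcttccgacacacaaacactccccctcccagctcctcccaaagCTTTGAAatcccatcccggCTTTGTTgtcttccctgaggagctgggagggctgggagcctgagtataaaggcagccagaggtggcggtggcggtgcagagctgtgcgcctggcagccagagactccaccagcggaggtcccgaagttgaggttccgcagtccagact
The capitals mark CTTTGAA, 117 bases before the start, and CTTTGTT, 98 bases before it. The search covered CTTTGAA or CTTTGAT, or else CTTTGTA or CTTTGTT, on both strands, and no 2 of these can lie at the same place. At least 1 of them was found in 6 of 34 promoters of the 25 members with an entry (17.6%), namely of Dkk1, Lef1, Tcf7l2, Wnt11, Wnt3 and Wnt5b, and in 16.9% of 32851 mouse promoters of the same length. A match is a run of letters and not a measured site.

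Dkkl1 is placed here by its name, a Dickkopf-like protein known from sperm-forming cells. Its ratio was 2.20 and 2.19 on the MAPC arrays, against -1.07 and -0.69 on the ESC arrays and -1.19 and -0.85 on the NS arrays. The MAPC arrays stood apart, while those of ESC and NS overlapped. In MAPC it was 8.45-fold higher than in ESC (3.08 ± 0.14 SE, limma, adjusted p = 1.51e-06) and 9.31-fold higher than in NS (3.22 ± 0.14 SE, adjusted p = 7.79e-07). The background-subtracted signal was bright in MAPC, at 2003 and 1776 units, against 154 and 254 in ESC and 149 and 303 in NS.

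Sfrp2, a secreted Wnt-binding protein made by mesenchyme and neural tissue, had the opposite order. Its ratio was -1.74 and -1.56 on the MAPC arrays, against -0.14 and -0.29 on the ESC arrays and 0.69 and 0.69 on the NS arrays. No 2 groups overlapped. In MAPC it was 5.06-fold lower than in NS (-2.34 ± 0.08 SE, limma, adjusted p = 1.90e-07) and 2.70-fold lower than in ESC (-1.43 ± 0.08 SE, adjusted p = 3.97e-06). ESC were lower than NS by a log2 difference of -0.91 ± 0.08 SE (adjusted p = 4.55e-05).

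Dkk3, a divergent Dickkopf protein, was lower in MAPC than in ESC by a log2 difference of -0.98 ± 0.08 SE and lower than in NS by a log2 difference of -0.73 ± 0.08 SE (limma, adjusted p = 4.11e-05 and 1.68e-04). Sfrp4 was high in NS, with ratios of -0.25 and -0.17 in MAPC, -0.02 and -0.06 in ESC and 0.61 and 0.64 in NS. It was lower than in NS by a log2 difference of -0.83 ± 0.06 SE in MAPC and -0.67 ± 0.06 SE in ESC (adjusted p = 8.13e-06 and 3.57e-05). Between MAPC and ESC, Sfrp4 differed by -0.17 ± 0.06 SE and missed the threshold (adjusted p = 0.0502). Dkk4, a Dickkopf protein that blocks the co-receptors, and the Wnt-binding proteins Sfrp5 and Wif1 passed in no comparison. Dkk4 lay below the 95th percentile of the negative control spots on 1 MAPC array and 1 ESC array.

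**Figure D3:**
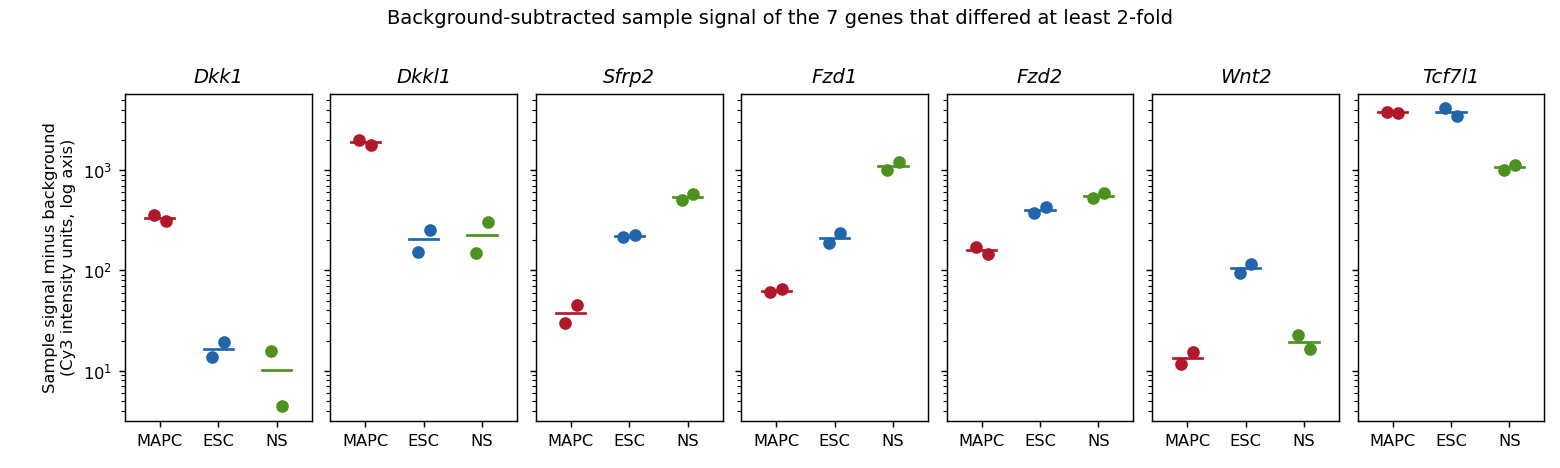
Background-subtracted Cy3 signal of the sample (vertical log axis, intensity units) in MAPC, ESC and NS for the brightest probe of the 7 genes that differed at least 2-fold, with 1 point per array and a line at the group mean. Levels compare between groups within a panel only. Dkk1 (358 and 310) and Dkkl1 (2003 and 1776) are highest in MAPC, Wnt2 (94.0 and 116) in ESC, and Fzd1, Fzd2 and Sfrp2 in NS.

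Of the 4 nuclear factors, 1 was higher and 2 were lower in MAPC than in ESC. In MAPC, 2 were higher than in NS, and in ESC, 3 were higher and 1 lower than in NS. The factors called were thus 75%, 50% and 100% in that order, beside 38.4%, 44.2% and 38.6% of all tested probes. Tcf7l1, which mostly represses targets and restrains pluripotency genes in embryonic stem cells, was high in MAPC and ESC alike. Its ratio was 2.66 and 2.73 on the MAPC arrays and 2.71 and 2.58 on the ESC arrays, against 1.21 and 1.12 on the NS arrays. MAPC were 2.89-fold higher than NS (1.53 ± 0.07 SE, limma, adjusted p = 8.24e-07) and ESC 2.78-fold higher than NS (1.47 ± 0.07 SE, adjusted p = 1.46e-06). MAPC and ESC overlapped and differed by 0.06 ± 0.07 SE (adjusted p = 0.577), which does not show that they are equal.

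Tcf7l2, which acts as both activator and repressor, was highest in MAPC, with ratios of 1.06 and 1.05, against 0.17 and 0.09 in ESC and 0.49 and 0.59 in NS. MAPC were higher than ESC by 0.92 ± 0.06 SE and higher than NS by 0.51 ± 0.06 SE (limma, adjusted p = 9.48e-06 and 1.96e-04). ESC were lower than NS by a log2 difference of -0.41 ± 0.06 SE (adjusted p = 8.58e-04). Lef1, mainly an activator, was highest in ESC, at 0.58 and 0.29, against -0.28 and -0.17 in MAPC and -0.07 and -0.06 in NS. MAPC were lower than ESC by a log2 difference of -0.66 ± 0.10 SE (adjusted p = 9.40e-04) and ESC higher than NS by 0.49 ± 0.10 SE (adjusted p = 0.00402). On 1 MAPC array the Lef1 probe was brighter than only 76.8% of the negative control spots. Tcf7 was lower in MAPC than in ESC by a log2 difference of -0.34 ± 0.07 SE (adjusted p = 0.0047).

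Axin2 and Ctnnb1, the cytoplasmic members, passed in no comparison. Axin2 builds the complex that destroys beta-catenin and is a widely used readout of the pathway. Its ratios were -0.07 and 0.17 in MAPC, 0.05 and -0.10 in ESC and 0.11 and 0.08 in NS. MAPC overlapped both other groups, while ESC and NS did not overlap. Its signal was 9.24 and 23.8 units in MAPC, 13.2 and 18.7 in ESC and 20.3 and 16.1 in NS. On each array that is brighter than 95.9% to 100% of the negative control spots. On MAPC array 1, however, Axin2 was not well above background. Its signals were faint in all groups, where the offset draws ratios towards 0, so a difference between groups could be hidden. Its differences were 0.08 between MAPC and ESC, -0.05 between MAPC and NS and -0.12 between ESC and NS, each ± 0.09 SE (limma, adjusted p = 0.55, 0.721 and 0.352), which does not show that the groups are equal. Ctnnb1 had ratios of 0.48 and 0.75 in MAPC, 0.77 and 0.27 in ESC and 0.47 and 0.39 in NS, with a gap between arrays of 1 group that exceeded every difference between groups.

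**Figure D4:**
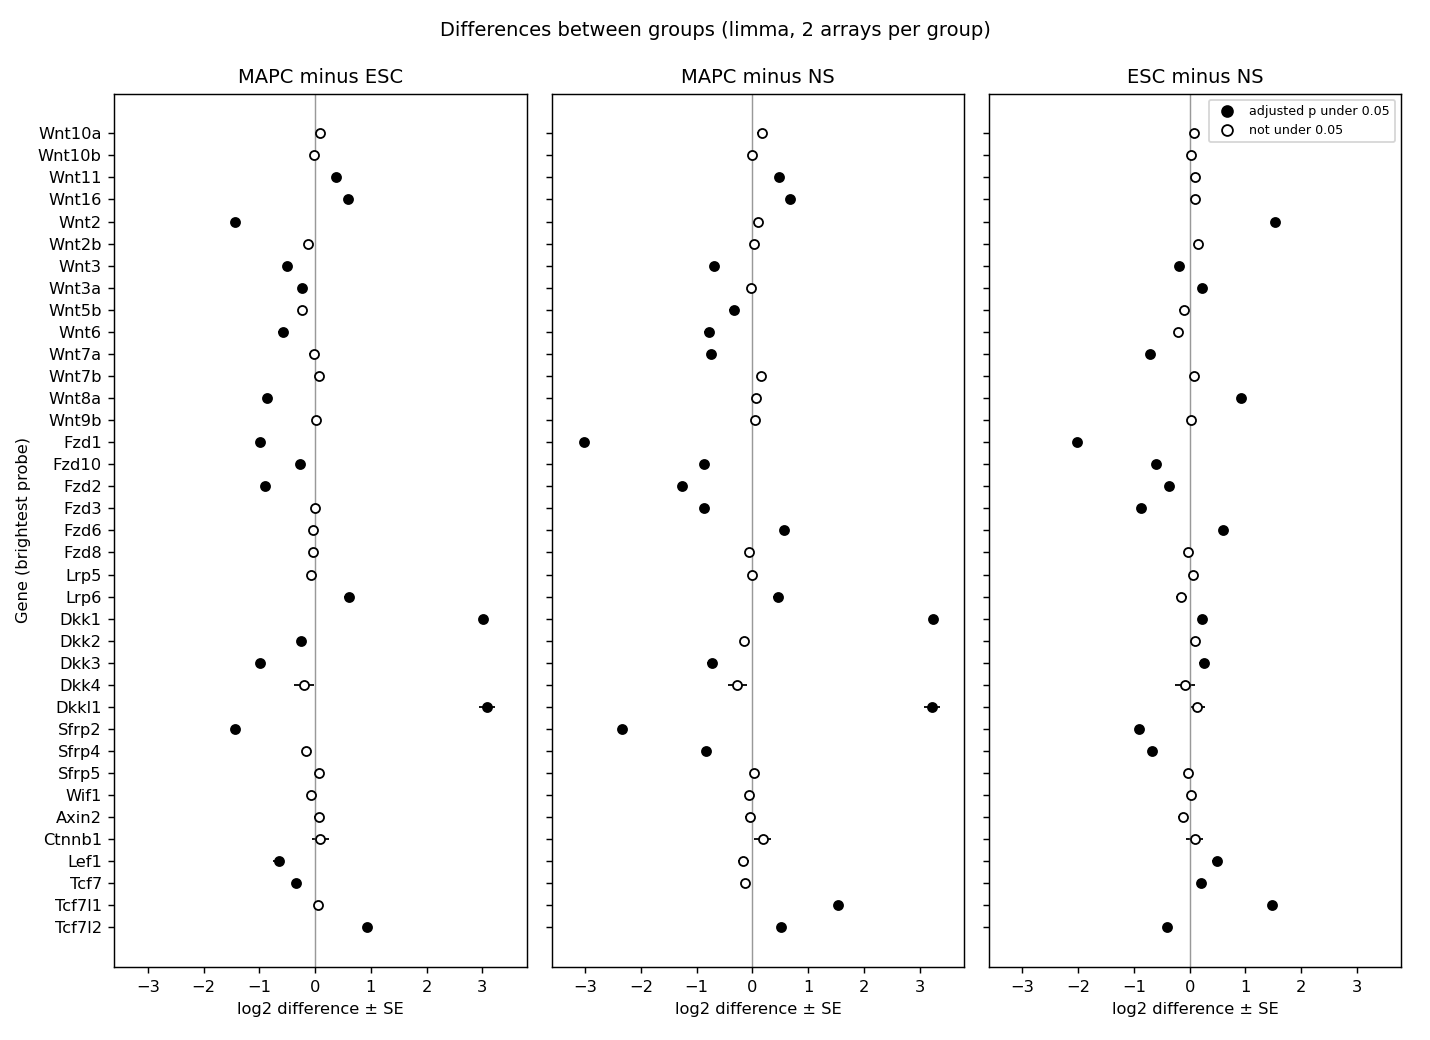
Log2 difference between groups with its SE (horizontal axis) for the brightest probe of each of the 37 genes (vertical axis, by role), with a panel for MAPC minus ESC, another for MAPC minus NS and the last for ESC minus NS. Filled points passed the threshold of 0.05. Dkk1 and Dkkl1 lie near 3 in both comparisons of MAPC, and Fzd1 lies at -1.0, -3.02 and -2.03.

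Some of the smaller calls were lost when 1 array was left out, in most cases with a difference of similar size. Between MAPC and ESC, the call on Dkk2 (-0.25 ± 0.07 SE, limma, adjusted p = 0.0217) was lost without MAPC array 1, MAPC array 2 or ESC array 2 (adjusted p = 0.0943, 0.0635 and 0.103), with differences of -0.23, -0.27 and -0.16. The call on Fzd10 (-0.27, adjusted p = 0.0131) was lost without MAPC array 1 or ESC array 1 (adjusted p = 0.0646 and 0.0692), with differences of -0.25 and -0.22. That on Wnt3a (-0.24, adjusted p = 0.0133), a ligand that activates beta-catenin, was lost without MAPC array 1 or ESC array 2 (adjusted p = 0.0686 and 0.0709), with differences of -0.22 and -0.19. Between MAPC and NS, the call on Wnt5b (-0.33, adjusted p = 0.0108) was lost without MAPC array 1 or NS array 2 (adjusted p = 0.0625 and 0.075), with differences of -0.30 and -0.29.

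Between ESC and NS, 5 calls were lost in this way. The MAPC arrays enter that comparison only through the shared estimate of the spread, so leaving one out kept the difference as it was. Dkk3 (0.25, adjusted p = 0.0451) lost its call without any of MAPC array 1, MAPC array 2, ESC array 1, NS array 1 and NS array 2, with adjusted p from 0.0627 to 0.205. Without ESC array 1 its difference was 0.13, and without either NS array 0.25. Tcf7 (0.21, adjusted p = 0.0393) lost its call without the same 5 arrays (0.0587 to 0.193), and its difference was also 0.13 without ESC array 1 and 0.21 to 0.22 without either NS array. For Wnt3 (-0.19, adjusted p = 0.0494) the call was lost without any of the ESC and NS arrays (adjusted p from 0.0743 to 0.202), with differences of -0.22 to -0.16. The other Wnt3 probe passed in this comparison, at -0.34 ± 0.08 SE (adjusted p = 0.0112). Wnt3a (0.22, adjusted p = 0.0183) lost its call without ESC array 2 or NS array 1 (adjusted p = 0.0944 and 0.114), with differences of 0.18 and 0.19. Dkk1 (0.22, adjusted p = 0.0431) lost its call without ESC array 1, ESC array 2 or NS array 2 (adjusted p = 0.141, 0.0932 and 0.252), with differences of 0.21, 0.24 and 0.14. Among the 7 genes that differed at least 2-fold, only this Dkk1 call was lost when an array was left out.

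The first arrays of all groups were feature-extracted on 1 day and the second arrays on another, so each day holds all 3 groups. Within the first and second day, the MAPC-minus-ESC difference was 3.05 and 2.98 for Dkk1, 3.27 and 2.88 for Dkkl1, -1.60 and -1.27 for Sfrp2, and -1.41 and -1.47 for Wnt2. For MAPC minus NS it was 3.21 and 3.26 for Dkk1, 3.39 and 3.04 for Dkkl1, -2.43 and -2.25 for Sfrp2, -3.04 and -3.01 for Fzd1, -1.16 and -1.36 for Fzd2, and 1.45 and 1.61 for Tcf7l1. For ESC minus NS it was -2.07 and -1.99 for Fzd1, 1.5 and 1.58 for Wnt2, and 1.5 and 1.45 for Tcf7l1. Each difference thus had the same sign and a similar size on both days. These differences were picked by their size and call on the same arrays, so the days give no independent evidence.

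Other components of the pathway were taken from a list of 59 genes, of which 36 had a probe. MAPC were higher than ESC in 9 and lower in 12 of them (58.3%), higher than NS in 9 and lower in 17 (72.2%), and ESC were higher than NS in 7 and lower in 10 (47.2%). Of all tested probes, 38.4%, 44.2% and 38.6% were called in those comparisons. Ror2, a receptor tyrosine kinase for Wnts that act without beta-catenin, was low in MAPC. Its ratio was -1.45 and -1.36 in MAPC, against 2.79 and 2.55 in ESC and 2.03 and 2.03 in NS. That is 16.8-fold lower than in ESC and 10.8-fold lower than in NS (limma, adjusted p = 3.51e-08 and 3.93e-08). The background-subtracted signal of Ror2 was faint in MAPC, at 20.2 and 26.7 units, against 1293 and 1125 in ESC and 718 and 765 in NS. How far the offset sets these folds was not tested. Wls, which carries Wnt proteins to the cell surface, had ratios of -2.56 and -2.24 in MAPC, -0.74 and -0.68 in ESC and 0.13 and 0.13 in NS. MAPC were lower than ESC by a log2 difference of -1.69 ± 0.10 SE and lower than NS by a log2 difference of -2.53 ± 0.10 SE. Celsr1, a cadherin of planar polarity, was lower in MAPC than in ESC by a log2 difference of -2.18 ± 0.08 SE.

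Rspo1, a secreted protein that enhances Wnt signals, was highest in ESC, at 2.78 and 2.19, against 0.18 and 0.04 in MAPC and 1.01 and 0.89 in NS. MAPC were lower than ESC by a log2 difference of -2.37 ± 0.17 SE, and ESC higher than NS by 1.53 ± 0.17 SE (limma, adjusted p = 1.62e-05 and 1.70e-04). Nkd1, an inhibitor that is itself a target of the pathway, was highest in NS, at 2.36 and 2.28, against -1.45 and -1.38 in MAPC and -0.16 and -0.46 in ESC. It was 13.4-fold lower than in NS in MAPC and 6.20-fold lower in ESC (adjusted p = 5.67e-08 and 5.08e-07). The background-subtracted signal of Nkd1 was 28.9 and 38.6 units in MAPC, 151 and 138 in ESC and 1164 and 1248 in NS. The part of the offset in its folds was not tested either. Gpc4, a cell-surface glypican that can bind Wnts, ran in the opposite order, at 2.11 and 2.00 in MAPC, 0.94 and 0.89 in ESC and -0.90 and -0.85 in NS. MAPC were higher than NS by 2.93 ± 0.06 SE and ESC by 1.79 ± 0.06 SE. Tle2, a co-repressor of the Tcf factors, was lower in ESC than in NS by a log2 difference of -1.71 ± 0.07 SE.

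Target genes came from a list of 35, of which 28 had a probe and 27 were tested. MAPC were higher than ESC in 5 and lower in 12 of them (63%, against 38.4% of all tested probes), and higher than NS in 8 and lower in 10 (66.7%, against 44.2%), while ESC were higher than NS in 9 and lower in 8 (63%, against 38.6%). Members of the list were called in both directions in each comparison. Ccnd1, the cyclin that drives entry into the cell cycle, was lowest in MAPC, at -2.14 and -1.87, against 0.84 and 0.99 in ESC and 2.21 and 2.23 in NS. It was 7.56-fold lower than in ESC and 18.7-fold lower than in NS (limma, adjusted p = 2.80e-07 and 2.87e-08).

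Ephb3, a receptor for ephrins, was higher in MAPC than in ESC by 2.65 ± 0.06 SE. Id2, an inhibitor of helix-loop-helix factors, was lower in MAPC than in ESC by a log2 difference of -2.48 ± 0.14 SE and lower than in NS by a log2 difference of -3.39 ± 0.14 SE. Sox9, a factor of neural stem cells and cartilage, was lower than in NS by a log2 difference of -3.46 ± 0.12 SE in MAPC and -2.72 ± 0.12 SE in ESC. Mycn, a Myc-family growth regulator, was higher in ESC than in NS by 2.44 ± 0.06 SE. Fosl1, a subunit of the AP-1 factor, was higher in ESC than in NS by 2.26 ± 0.13 SE, and Tnfrsf19, a receptor found in neural progenitors, was lower (-1.97 ± 0.09 SE). All of these genes are known to respond to other signals as well.

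**Figure D5:**
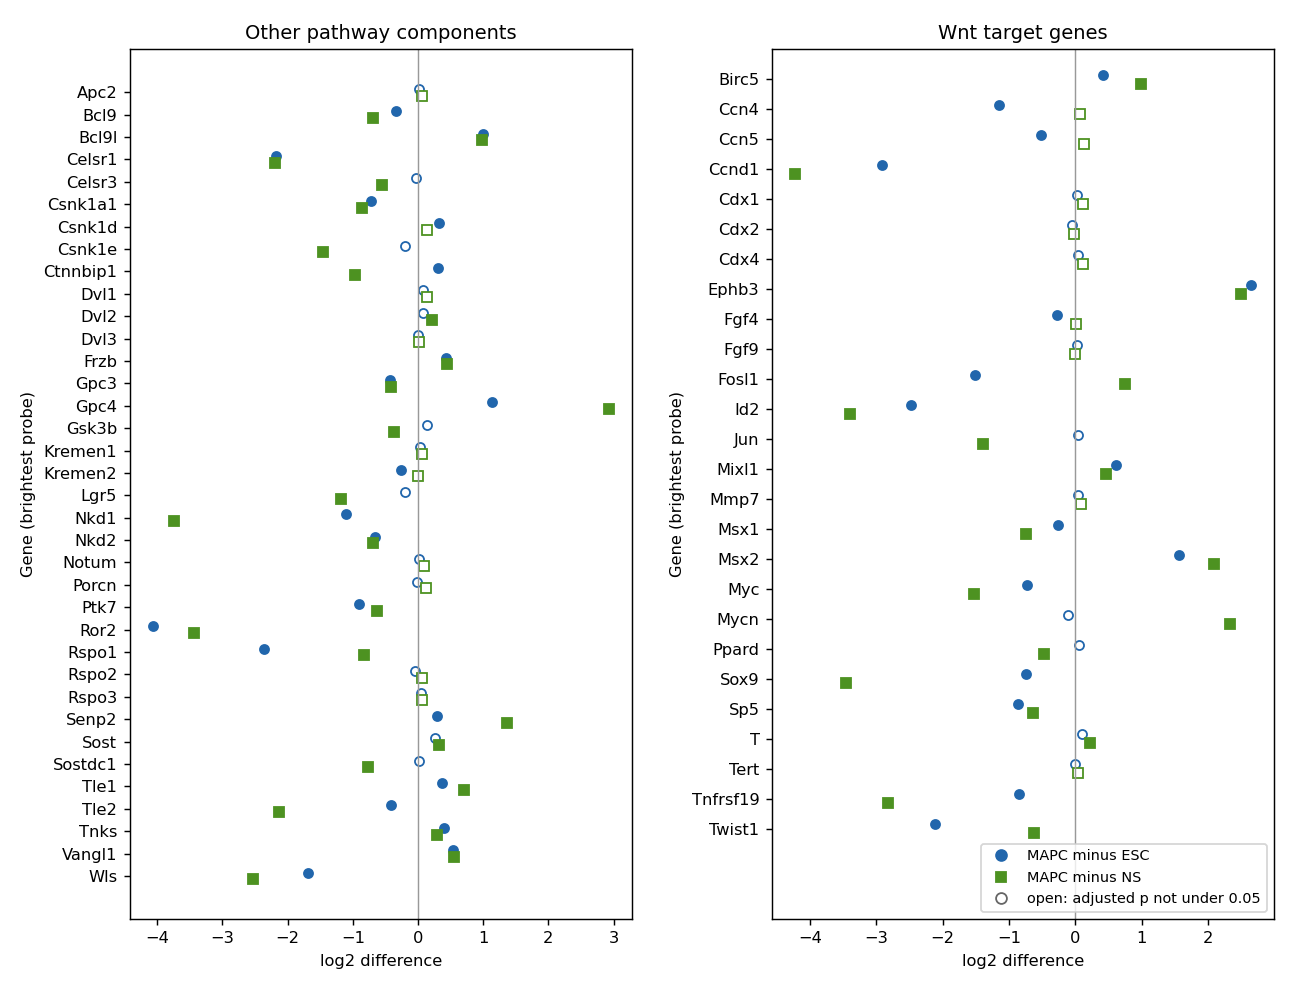
Log2 differences of MAPC from ESC (circles) and from NS (squares) on the horizontal axis for the brightest probe of each tested gene shown (vertical axis) of the 2 further lists. Filled symbols passed the threshold of 0.05. The widest differences below 0 are those of Ror2 and Nkd1 among components and Ccnd1 among targets, and Gpc4 has the widest above 0 among components. On both MAPC arrays Kremen2 and Tnfrsf19 were not well above background, so their MAPC values are upper limits.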

How the data were processed

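Each of 6 two-colour Agilent arrays carried Cy3-labelled sample and a Cy5-labelled reference, with no dye swap. The deposited scanner files hold the mean intensity and the local background intensity of each spot, per the file headers from version A.7.5.1 of Agilent's Feature Extraction, beside the deposited intensity after the software's own background and dye processing. The series matrix holds log10 values deposited by the authors, with column medians of 2.95 to 2.97. How they were scaled is not stated in any source used, and they served as an alternative. Columns without a sample numbered 0.

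Signals were background-corrected with normexp (offset 50) and normalized by loess within each array with limma 3.58.1. The software was R 4.3.3, and version 1.17.8 of the data.table package read the files. The values tested are log2 ratios of sample to reference made from the deposited intensities. For the summed Cy3 signals, the mean log intensity of both channels was also quantile-normalized between arrays, and the offset was kept. Spots of a probe were averaged after control spots and flagged outliers had been dropped. Testing needed Feature Extraction's mark of a Cy3 signal well above background from both arrays of 1 or more groups, which left 39402 of 41006 probes. A single lmFit and eBayes fit of all 6 arrays had 3 residual degrees of freedom, with Benjamini-Hochberg adjustment over all tested probes. With 2 arrays a group, an exact permutation test cannot give a p below 0.333. The script was tested on simulated data. The number of arrays limits the precision, and the series' design text calls the arrays of a group biological replicates.

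Genes were named through RefSeq accessions (15294 probes), symbols (15) or older symbols (72), and 25625 probes stayed unnamed. Every member is accounted for, values on every array are given for members at least 2-fold different, and up to 4 genes with the largest differences are named from each further list in each comparison, apart from 1 target gene that is counted but not reported here. Members, lists and tests were chosen with earlier results of these data known. Promoters and chromosomes are from RefSeq (GRCm38.p6).

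Replicate numbers matched the day of feature extraction. Deviations of same-numbered arrays correlated by 0.0976 for MAPC with ESC, 0.157 for MAPC with NS and 0.208 for ESC with NS, and the numbers were not taken to pair the arrays. Alternatives covered background correction, normalization, the deposited processed values, the sample channel alone, probe filters, the choice among probes, the replicate number as a block, fits of 2 groups alone, and leaving out each array.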

Additional observations from a re-analysis of the deposited data

How the results depend on the processing

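Of 56 member calls over the 3 comparisons, 43 held under every alternative with a test that was run, 13 were lost under at least 1 and 9 under at least 3 of them. Of the differences not called, 15 passed under at least 1 alternative, among them Lrp5, whose log2 difference was -0.52 for MAPC against ESC and -0.63 for MAPC against NS when its probes were averaged. Signs turned with the sample channel alone, quantile-normalized, for Dkk2 between MAPC and NS (0.45, adjusted p = 0.0291), Tcf7 between ESC and NS (-0.054, adjusted p = 0.766) and Wnt3a between ESC and NS (-0.069, adjusted p = 0.712) in limma. There, 4 members were higher in ESC than in NS in place of 9, and the cause was not tested. Calls lost there included those on Lef1 (0.44, adjusted p = 0.0524) and Fzd6 (0.37, adjusted p = 0.0725) between ESC and NS. The call on Lrp6 between MAPC and NS was also lost (0.41, adjusted p = 0.0554). With 1 array left out, members called numbered 6 higher and 10 to 13 lower between MAPC and ESC, 8 to 9 higher and 10 to 11 lower between MAPC and NS, and 6 to 7 higher and 8 to 10 lower between ESC and NS. The lone array of a group was then assumed to vary like the others. With the replicate number as a block, which is also the feature-extraction day, 6 members were higher and 13 lower between MAPC and ESC, 8 and 11 between MAPC and NS, and 9 and 9 between ESC and NS. The block took the call from Wnt3 (adjusted p = 0.0595) and gave one to Wnt6 (adjusted p = 0.0421), both between ESC and NS. Over all probes it called 15781, 18116 and 15735 in the 3 comparisons, in place of 15144, 17397 and 15214. Without background subtraction Dkk1 differed by 1.24 between MAPC and ESC, and with the series matrix values, which change several steps together, by 4.04. Between MAPC and NS, Sfrp2 gave -1.13 without background subtraction and -3.11 with the deposited processed signals, and Fzd1 -1.78 and -3.6. Averaging the 2 probes of Fzd1 gave -1.53. Tcf7l1 stayed between 1.42 and 1.76 under all alternatives. How far faint signal sets these sizes was not tested.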
